A study of Mus musculus with 8 samples.

Results

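The liver of wild-type mouse pups on day of life 3 was described here by the level of its transcripts, from 4 of the 8 arrays of the series. The 4 arrays were taken by their sample titles, which name them as wild type 1 to 4. Each array read RNA of the liver of 1 pup. The pups were of the inbred C57BL/6J strain, were labelled male, and were littermates, matched in age, of mice that lacked glycerol kinase, an enzyme that phosphorylates glycerol. The other 4 arrays read those knockout livers and were not used. The labels do not say which pups shared a litter, and no treatment was given in them.

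In a newborn mouse the liver does the work of 2 organs. Its hepatocytes make most proteins of the blood plasma (albumin, its fetal relative alpha-fetoprotein, the carriers of lipids, and the clotting and complement factors) and take over sugar, nitrogen and lipid metabolism from the placenta. Between them lie islands of blood-forming cells, left from fetal life, that make red cells, granulocytes and platelets until the bone marrow and spleen have taken their place. RNA of the whole liver holds both kinds of cell, so fewer cells of a type and less RNA per cell cannot be told apart in any value given here.

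Signal intensity was read with the Affymetrix Mouse 430 2.0 array, on which a probe set is a group of short probes for 1 stretch of a transcript. Each array had been scaled to a trimmed mean signal of 500, so that values are comparable between arrays but not with those of other studies. Without controls the array held 45037 probe sets. Of these, 20344 (45.2%) had a mean signal of 200 or more over the 4 livers, the level below which a probe set was treated as dim. The 18193 genes with a probe set of their own were each represented by the brightest such probe set, and 10876 of them (59.8%) reached 200. Olfactory, vomeronasal and taste receptors and keratin associated proteins of hair, which liver is not known to use, gave the level of background: 11 of their 129 probe sets (8.53%) reached 200, with a median of 58.6 and a 95th percentile of 254. Every count of members at 200 or more is to be read against the 59.8% of all genes and the 8.53% of these probe sets.

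Signal also depends on how well a probe set binds. Among 6784 genes with several probe sets of which the brightest reached 200, the brightest exceeded the dimmest by a median of 5.80-fold, with quartiles of 2.43 and 16.8. The ranks below therefore order brightness and not numbers of molecules, and no length correction exists for such values. Values of the same gene on different arrays do not have this limit.

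The 4 arrays did not stand equally close to each other. The array labelled wild type 4 went against its label of male: Xist, the RNA that coats an inactive X chromosome, read 10506 there and 196 to 396 on the others, and the Y-linked genes Eif2s3y, Uty and Kdm5d read 1.3, 24.8 and 37.8 there. The signal of glycerol kinase was not analysed here, so that the genotype label of this or any array was not checked; "wild type 4" below means the array labelled so. Wild type 1 was the array that lay apart most often, as described under variation. A pair of control values lay closer within wild type 1 and 2 and within wild type 3 and 4 than between them: the spiked BioB control read 167 and 141 on the first pair against 324 and 258 on the second, and the ratio of 3' to 5' signal of the transferrin receptor was 6.50 and 6.53 against 4.79 and 4.83. The labels name no batch. The same ratio of pyruvate carboxylase, a sign of RNA quality, was 3.46, 2.63, 2.33 and 2.12 on wild type 1 to 4. That of actin was 1.325, 1.253, 1.243 and 1.239. Both were higher on wild type 1 and 2 than on 3 and 4, but wild type 2 lay closer to 3 than to 1. The highest of the TrpN controls (21.3, 13.4, 4.7 and 40.9) did not part the pairs. Wild type 3 carried transcripts of the exocrine pancreas, given below. All 4 arrays were kept, and the values of each are given where they matter.

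The defining transcripts of hepatocytes bore out the label of the tissue. Apoa1, the main protein of high density lipoprotein, was the brightest of all genes, at 29780.4, 29266, 35762 and 35404 on wild type 1 to 4, a mean of 32553 ± 3508 (SD, n = 4). Afp, which encodes alpha-fetoprotein, read 26582, 25639, 31218 and 31164, and Alb, which encodes albumin, read 21384, 19537, 26507 and 26302. Hnf4a, a nuclear receptor that controls much of the hepatocyte program, read 5242, 5559, 3931 and 4842. On all 4 arrays the first 3 lay far above the median gene, which read 316, and Hnf4a lay well above it. The 4 probe sets of Apoa1 had means from 27407 to 32553, whereas the 5 of Afp ran from 24.6 to 28651. Probe sets named for the same gene thus gave both a near-background and a near-maximal value. Which stretch of the gene each one reads was not checked. Afp and Alb lie side by side on chromosome 5 (90490714 to 90508907 and 90460870 to 90476602, build GRCm38.p6), Apoa1 on chromosome 9 (46228630 to 46230469) and Hnf4a on chromosome 2 (163506811 to 163572907).

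Hepatocyte genes are known to share binding letters for the factor HNF1 close to their start, and red cell genes letters for GATA factors. The promoters of 4 bright hepatocyte genes and of Alas2, which encodes the first enzyme of heme synthesis in red cells, are shown to let a reader see these letters. Each one shown holds the HNF1 or the GATA letters, and that of Apoa1, which holds neither, is not shown. They are examples and do not stand for bright genes at large. Each line gives the 150 bases before the start that RefSeq annotates on GRCm38.p6, all on the plus strand; capitals mark the HNF1 letters GTTAAT, which appear as ATTAAC when they lie on the other strand, the TATA box letters TATAAA, and the GATA letters AGATAA, which appear as TTATCT when they lie on the other strand.
Alb, chr5:90460720-90460869: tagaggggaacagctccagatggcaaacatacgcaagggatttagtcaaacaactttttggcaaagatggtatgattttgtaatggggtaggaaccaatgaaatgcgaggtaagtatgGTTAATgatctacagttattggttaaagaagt
Afp, chr5:90490564-90490713: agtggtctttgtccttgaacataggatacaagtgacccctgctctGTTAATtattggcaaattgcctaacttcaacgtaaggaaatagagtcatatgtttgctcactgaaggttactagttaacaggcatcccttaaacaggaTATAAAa
Fabp1, chr6:71199729-71199878: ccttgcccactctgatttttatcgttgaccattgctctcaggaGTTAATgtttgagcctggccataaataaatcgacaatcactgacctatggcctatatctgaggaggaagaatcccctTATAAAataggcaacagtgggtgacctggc
Igfbp1, chr11:7197637-7197786: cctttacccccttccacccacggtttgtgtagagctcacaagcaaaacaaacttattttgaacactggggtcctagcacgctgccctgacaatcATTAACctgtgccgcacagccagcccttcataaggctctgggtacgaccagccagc
Alas2, chrX:150547267-150547416: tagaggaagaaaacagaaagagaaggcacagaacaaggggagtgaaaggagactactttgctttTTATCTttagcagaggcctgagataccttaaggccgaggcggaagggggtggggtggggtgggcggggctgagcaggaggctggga

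In these windows the first base of GTTAAT lay 32 bases before the annotated start in Alb, 105 in Afp and 107 in Fabp1. In Igfbp1 the motif lay on the opposite strand, 56 bases before the start. TATAAA lay 30 bases before the start in Fabp1 and 7 in Afp. The window of Apoa1 held neither motif, although Apoa1 was the brightest gene.

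Over windows of 300 bases (250 before and 50 after a start), GTTAAT on either strand was found in 35 of 142 promoters (24.6%) of the secreted protein genes described below and in 7.10% of all 32851 RefSeq promoters. It was found in 14 of 102 promoters (13.7%) of the 100 brightest genes, in 2 of 48 (4.17%) of ribosomal protein genes and in 0 of 20 of the erythroid genes. AGATAA on either strand was found in 8 of those 20 erythroid promoters (40%) and in 11.2% of all. TATAAA, sought on the gene's own strand only, was found in 16.9% of the secreted protein promoters and 8.32% of all. GGGCGG, the letters bound by Sp1 in many widely used promoters, went the other way: it stood in 17 of 142 (12%) of secreted protein promoters, 35.7% of all, and 63.9% of the promoters of genes with a signal from 2000 to 10000. Each motif was counted on its own, the capitals of different motifs do not overlap in the windows shown, and a match describes these letters only. Genes with several starts have several windows, which are not independent.

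The upper end of the range was flat. The brightest gene was 1.95 times as bright as the gene of rank 100, which in turn was 4.18 times as bright as the gene of rank 1000. The 40 brightest genes held 5.26% of the summed signal of all genes, the 100 brightest held 11.3%, and 1227 genes were needed to reach 50%. These are signals of different probe sets near the top of the array's range, and whether that range has an upper limit there was not tested.

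Of the 40 brightest genes, 23 encode secreted proteins on the lists used here, 6 encode proteins of the ribosome, and 11 encode others. After Apoa1 came Fabp1, the fatty acid binding protein of liver, at 21698, 27150, 36497 and 32783, then Apoa2, the second protein of high density lipoprotein, at 26692, 26251, 32646 and 32128. Ahsg, which encodes fetuin A, a plasma protein that keeps calcium phosphate in solution, read 26298, 25563, 32678 and 32389.9. Wild type 3 and 4 lay above wild type 1 and 2 for each of these 4 genes. Apoe, Fbp1, Eef1a1, Igfbp1 and Ttr completed the first 10, with means from 26179.5 to 26707. Fbp1 encodes a key enzyme of gluconeogenesis, Eef1a1 carries amino acids to the ribosome, Igfbp1 binds insulin-like growth factors in plasma, and Ttr carries thyroid hormone and retinol binding protein. Neighbours in this order were not apart beyond their spread: Fabp1 stood at 29532 ± 6484 (SD, n = 4) and the gene of rank 10, Ttr, at 26179.5 ± 3678 (SD, n = 4). Alb took rank 29 at 23433 ± 3515 (SD, n = 4), on the only probe set it had.

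**Figure D1:**
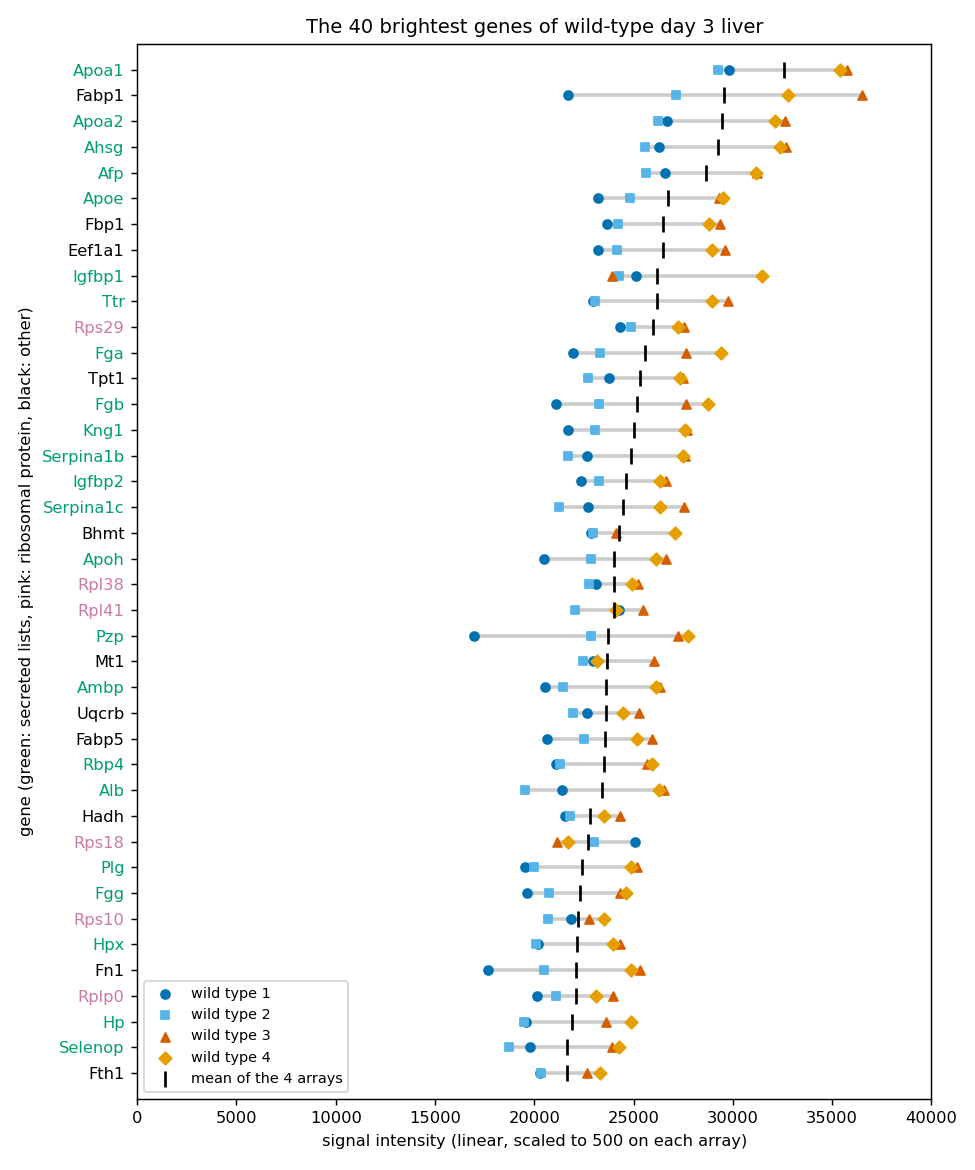
Signal intensity (x axis, linear) of the 40 genes with the highest mean, on each of the 4 arrays; the bar joins the lowest and highest array and the tick is the mean. Means run from 21660 to 32553, and for most secreted protein genes (green) wild type 3 and 4 lie to the right of wild type 1 and 2, while Igfbp1 stands out on wild type 4 and Pzp is lowest on wild type 1.

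The 11 brightest genes that were neither secreted on these lists nor ribosomal were Fabp1, Fbp1, Eef1a1, Tpt1, Bhmt, Mt1, Uqcrb, Fabp5, Hadh, Fn1 and Fth1. Bhmt, which remethylates homocysteine in liver, read 24249. Mt1, which encodes the metal binding metallothionein 1, read 23640, and Fth1, the ferritin heavy chain that stores iron, read 21660.1. Fn1, which encodes fibronectin, is itself a plasma protein that the lists did not hold; it read 17676, 20496, 25311 and 24866, lowest on wild type 1.

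Secreted proteins were described by class. Their lists held 153 genes, of which 123 had a probe set of their own and 114 reached 200. Of those measured, 50 (40.7%) reached 10000, against 254 (1.4%) of all genes. Together they held 6.41% of the summed signal. The lists name proteins known to be made by liver, and high values among them are not a finding by themselves. Members without a probe set of their own, such as those for complement C3, transferrin and the vitamin D binding protein, were not analysed here.

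Carriers of plasma were the brightest class, with a median of 20638 over the 18 measured, of which 15 reached 200. Its 5 brightest were Ahsg, Afp, Ttr, Ambp, the precursor of alpha-1-microglobulin (23611), and Rbp4, the carrier of retinol (23501). The orosomucoids, carriers that rise in inflammation, lay at background, with 61.6 for Orm1, 33.2 for Orm2 and 16.4 for Orm3. Serpina6, which encodes the carrier of corticosteroids, was low at 460.4, 789, 790.4 and 412. Serpina7, the carrier of thyroid hormone, read 7128, 5828, 3442 and 3286, higher on wild type 1 and 2 than on 3 and 4, against the direction of the other bright carriers. Of the 15 carriers at 200 or more, 11 were higher on both wild type 3 and 4 than on both 1 and 2, and 1 was lower on both. Over all genes at 200 or more these shares were 18.9% and 19.8%. Most carriers were bright, with 13 of the 15 at 10000 or more. Of all probe sets, 37.9% from 10000 to 20000 and 79.8% at 20000 or more were likewise higher on wild type 3 and 4. Whether carriers differed beyond this shift of bright probe sets was not tested.

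Apolipoproteins followed with a median of 13894, and 15 of 16 reached 200. Below Apoa1, Apoa2 and Apoe stood Apoh (24021) and Apoc1 (19136). Apob, the scaffold of very low density lipoprotein, read 10411, 6836, 14961 and 14161, lowest on wild type 2. Apoc3, which slows the clearance of triglyceride, read 6028, 3234, 5595 and 9856, with wild type 4 about 3 times wild type 2. Apod, an apolipoprotein made mainly outside liver, lay under 200 at 146. Apobec1, which edits the messenger RNA of Apob and is no apolipoprotein, was caught by the list and read 615.

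All 25 measured genes of coagulation and fibrinolysis reached 200. The 3 chains of fibrinogen lay close together, with means of 25571 for Fga, 25189 for Fgb and 22325 for Fgg, although they are read by different probe sets. Kng1, the source of kinins, read 25008, and Plg, the precursor of plasmin, 22386. The dimmest members were F8 (416), Vwf (491), Pros1 (580.3), Habp2 (1054) and F7 (2682); of these F8 and Vwf are known to be made by endothelium and not by hepatocytes. Habp2, a protease of plasma, read 556, 1039, 1491 and 1129.

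Complement was less bright, with a median of 2683, and all 20 measured members reached 200. Cfi, the protease that inactivates C3b, led with 14993, ahead of Hc, which encodes C5, with 10781, and Cfb with 7969.9. The last component of the membrane attack complex, C9, read 474, 445, 976 and 347, with wild type 3 above the others, and C6 read 197, 349, 327 and 523. Mbl2, a mannose binding lectin, read 3163, 3349, 5347 and 10705, a coefficient of variation (CV, the SD as a percent of the mean) of 62.4%. Mbl1, the other such lectin, was named after its value was seen and read 3964, 3224, 2878 and 2363, in the reverse order of arrays.

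Protease inhibitors had a median of 12447, and all 17 measured members reached 200. Serpina1b and Serpina1c, near-identical copies of alpha-1-antitrypsin whose probe sets may share transcripts, read 24855 and 24444. Pzp, a broad inhibitor related to alpha-2-macroglobulin, read 16979, 22877, 27211 and 27746, with wild type 1 well below the rest. A2m and Mug1 of the same family were far dimmer, at 1583 and 781. Spink1, an inhibitor of trypsin, read 3538, 1717, 1564 and 1261, highest on wild type 1.

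Acute phase proteins were split. Hpx, Hp, Cp, Apcs and Itih4 were the brightest of the list, with means from 16558 to 22132. Other members lay far apart. Saa1 read 73.5 and Saa2 108, at background beside the orosomucoids, and Saa3 read 222, whereas Hamp read 10029, Serpina3n 7764, Lcn2 7049 and Lbp 5983. Of the 16 members, 12 reached 200.

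Among hormones, growth factors and their binding proteins, 22 of 22 reached 200. Igf2, the fetal growth factor, read 17648, 19125, 24188 and 23528; its binding proteins Igfbp1, Igfbp2 and Igfbp4 had means of 26185, 24629 and 19190.4. The dimmest were Fgf21 (206), Hgf (278), Hamp2 (645), Igfbp3 (731) and Inhba (772). Igfbp3, the main binding protein of the adult circulation, read 248, 571, 522 and 1583 and was highest on wild type 4. Igf1, named here after its value was seen, read 2670.1, 3659.6, 4127 and 3905, lowest on wild type 1.

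Major urinary proteins, which carry pheromones and are abundant in the adult male liver, lay at background. The 3 of 13 listed that had a probe set of their own read 136 (Mup5), 17.2 (Mup3) and 6.42 (Mup10), and none of them reached 200. The other members were not analysed here.

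**Figure D2:**
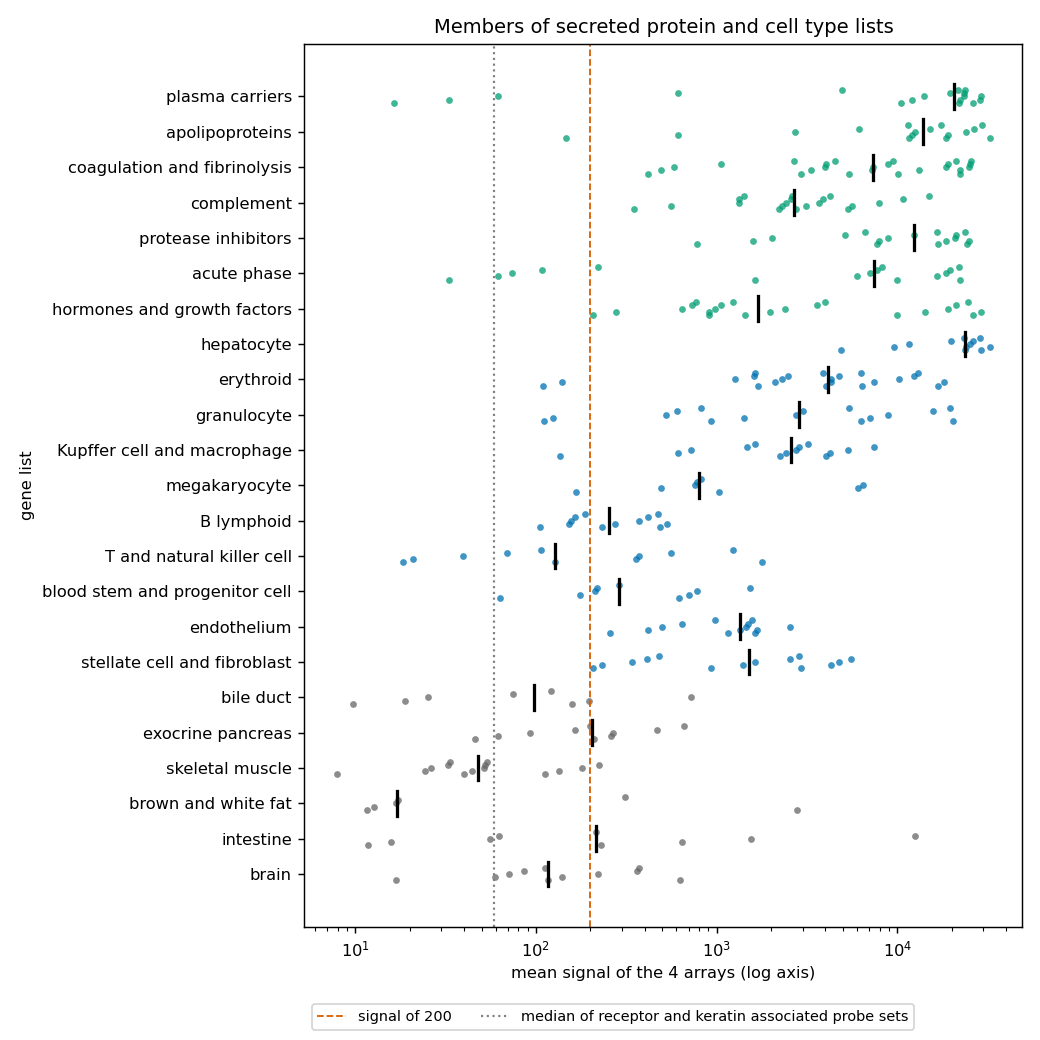
Mean signal over the 4 arrays (x axis, log scale) of every measured member of 7 secreted protein lists (green), 10 lists of liver and blood cells (blue), and of bile duct and tissues outside the liver (grey); black bars are medians, the dashed line is 200 and the dotted line is the median of receptor and keratin associated probe sets at 58.6. Plasma carriers and hepatocyte markers have medians above 20000, while markers of skeletal muscle, fat and brain have medians below 200.

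Proteins of the cytosolic ribosome were the second large class among the brightest genes, with 22 of the 100 brightest against 35 on the secreted lists. The 46 measured held 3.21% of the summed signal. They were taken by the form of their symbols, which missed Rps3a1 (20488), also among the 100 brightest, and took in the dim Rpl3l (25.0). Members without a probe set of their own were not counted. Rps29 (25997) and Rpl38 (23997) led the small and large subunits. Rps16 read 14.3 on its probe set, and a low signal does not by itself show a low transcript level. The median CV was 8.17% for the large and 7.68% for the small subunit, against 16.2% over all genes at 200 or more, most of which were dimmer, and 10.02% over all probe sets from 10000 to 20000, the class that holds the medians of both subunits.

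The machinery of mitochondria was measured in nearly full sets. All 76 measured proteins of the mitochondrial ribosome reached 200, from 439 for Mrpl33 to 4377 for Mrpl51, as did 34 of 35 subunits of complex I and all 17 of ATP synthase. Of 17 cytochrome c oxidase subunits 11 reached 200; Cox7a2 was the brightest at 20222 and Cox7b2, a form of the testis, the dimmest at 8.05. Among proteasome subunits 37 of 39 reached 200, and the dimmest was Psma8, also a form of the testis, at 81.2.

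Families of metabolism and structure ranged more widely in their share at 200 or more. Of 20 glutathione S-transferases, which conjugate foreign compounds, 18 reached 200. Of 70 cytochrome P450 genes 42 reached 200, near the share of all genes, and 6 reached 10000; Cyp2e1 was the brightest at 20987. Of 334 solute carriers 211 reached 200, also near that share, led by the mitochondrial Slc25a39 (17543). Mt1 and Mt2, the metallothioneins of liver, read 23640 and 19669, and Mt3 and Mt4, those of brain and skin, 30 and 41.4. Keratins reached 200 in 8 of 44 cases; Krt18 (5599) and Krt8 (3942), the pair of simple epithelia that hepatocytes use, were the brightest. Collagens reached 200 in 21 of 42 cases, led by Col18a1, a collagen of basement membranes, at 9205.

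Genes typical of fetal liver were still bright on day 3. Beside Afp and Igf2, the imprinted growth genes Plagl1, Peg3 and Meg3 read 8706, 8535 and 5899.5, and 12 of 13 measured members reached 200. Lin28b, which marks early fetal cells, lay at background with 17.8, and Igf2bp1 and Hmga2 were near the threshold at 256 and 274. Meg3 read 3258, 4859, 9426 and 6056, highest on wild type 3.

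Genes typical of adult liver were unequal in turn. Cyp2e1, Cyp3a11, Cyp4a14, Hpd and Adh1 had means from 13374 to 20987. Slco1a1, Elovl3 and Hsd3b5, which are known to rise with sexual maturity, lay under 200 at 116, 115 and 13.3. Cyp2c29 and Cyp2b10, enzymes that foreign compounds induce, read 536, 367, 268 and 252 and 588, 307, 162 and 145; both were highest on wild type 1. Of the 22 measured, 19 reached 200.

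Transcripts of both zones of the liver lobule were present. Of the periportal list, Cps1, the entry enzyme of the urea cycle, read 17981, 18400.1, 20836 and 22383; G6pc and Pck1, which release and form glucose, read 8547, 11319.7, 9461 and 18638 and 8159, 9479, 9595 and 14795, both highest on wild type 4. All 11 measured periportal members reached 200, and their sum was 64885, 68890.2, 67627 and 93477. Of the pericentral list Cyp2e1, Rgn, Glul, Gulo and Lect2 were the brightest, with means from 3995 to 20987; Slc1a2, a glutamate transporter, was the only one of 13 under 200, at 48.5. The pericentral sum was 51982, 59174, 66815 and 57938. Wild type 4 had the highest periportal sum and not the highest pericentral sum.

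Pathways that newborns need were bright. Of gluconeogenesis, all 11 measured members reached 200; Fbp1 led, and the coactivator Ppargc1a was the dimmest, at 478, 263, 291 and 901, again highest on wild type 4. All 8 urea cycle genes reached 200; Ass1 was the dimmest on its probe set at 276 against 9658 for Arg1. All 9 measured genes of fatty acid oxidation and ketone synthesis reached 200, with a median of 8753 and no CV of 50% or more; Acat1 was the brightest at 16461. Fatty acid synthesis was dimmer, with a median of 985, and Thrsp and Acacb lay under 200 at 129.6 and 40.1. Fasn, fatty acid synthase, was likewise named after its value was seen and read 573, 1293, 1193 and 1028.

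Bile acid genes reached 200 in 13 of 14 cases. Slc10a1, which takes bile acids up from blood, read 11412, and Abcb11, which exports them to bile, 5477. Cyp7a1, the rate-limiting enzyme of bile acid synthesis, also named after its value was seen, read 4700.4, 2168, 1729.7 and 1861, with wild type 1 far above the others. Abcc2, which exports conjugated bilirubin, read 201, 353, 809 and 1344. Cyp7b1 lay under 200 at 108.

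Hepatocyte transcription factors were all at 200 or more (18 measured), with a median of 1163. Atf5, Cebpa, Creb3l3, Hnf4a and Ppara were the brightest, with means from 2253 to 11638. Foxa1, Onecut1, Prox1, Nr1i2 and Nr1h3 were the dimmest, from 277 to 577. Their median CV was 14.5%, and none reached 50%. The sum of the list differed between arrays by 1.13-fold.

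Blood-forming genes made up the other side of the organ. The hepatocyte list summed to 233741, 229680, 282710 and 289519 on wild type 1 to 4, and the erythroid list to 136711, 116259, 138903 and 109859. These sums cover 12 and 22 measured genes. The erythroid sum leaves out the bright probe sets paired with several globin genes, given below. The size of one sum against the other therefore does not measure the 2 kinds of cell. Of the erythroid list, 20 of 22 measured members reached 200. Car2, a carbonic anhydrase of red cells and of other tissues, read 17667, 16631, 21533 and 16989; Slc4a1, the anion exchanger of the red cell membrane, 15843, 15392, 18845 and 17465; and Slc25a37, which imports iron into mitochondria, 13257, 11869, 14260.3 and 12475. Tfrc, the transferrin receptor through which erythroblasts take up iron, read 14991, 10696, 13229 and 10623, and Alas2 10274, 9774, 11901 and 8877. Each of these 5 genes was lower on wild type 2 than on 1, and lower on wild type 4 than on 3.

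The adult globins could be read only in part. The 4 probe sets paired with several globin genes and with no other gene had means from 17895 to 20750 and CVs from 8.98% to 15.8%, whereas the probe sets for a single alpha globin gene read 139 (Hba-a1) and 109.8 (Hba-a2). The probe set of Hbb-b2, a beta globin gene with a near-identical neighbour, read 7139, 2713, 2942 and 2757, so that wild type 1 stood alone. The 4 probe sets paired with several globin genes went otherwise, and on each of them wild type 1 lay below wild type 3 and 4. They read 16301 to 18953 on wild type 1, 19950 to 23637 on wild type 3 and 18326 to 23143 on wild type 4. The embryonic globins Hbb-y, Hba-x and Hbb-bh1 lay at background, with 60.1, 56.1 and 49.9.

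All 8 measured enzymes of heme synthesis reached 200. Fech, which inserts the iron, read 11462, Urod 10775 and Cpox 10074, while Alas1, the first enzyme in tissues other than red cells, read 1031, 2003, 1951 and 1902. Of erythroid transcription factors all 10 reached 200. Lmo2, Tal1, Klf1, Nfe2 and Zfpm1 led, with means from 3227 to 5193; Gata1 read 2346, 2697, 3022 and 1858. Bcl11a, which silences fetal globin genes in people, was the dimmest at 744.

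White cell transcripts were led by granulocyte genes. S100a8 and S100a9, the calcium binding proteins of neutrophils, read 21466, 22324, 18057 and 20002 and 20363, 20431, 16994 and 20443, followed by the granule proteins Ngp (11928, 16619, 15835 and 18647), Camp (8907) and Lcn2 (4359, 8669.9, 6500.3 and 8668); Lcn2 is also made by hepatocytes in inflammation. Of this list 14 of 16 reached 200; Gfi1 and Cxcr2 did not, at 124 and 111. Of the Kupffer cell and macrophage list 13 of 14 reached 200, with Csf1r, the receptor of the macrophage growth factor, at 5204, 8412, 6225 and 9900.3; Cd163 did not, at 136. Platelet genes were led by Ppbp and Pf4, chemokines of platelet granules, at 6489 and 6057, and 7 of 8 reached 200.

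Lymphoid transcripts were dim. Of the B lymphoid list 7 of 12 reached 200, and the brightest, Cd79b, a part of the B cell receptor, read 335, 625, 322 and 834. Rag1 and Rag2, which rearrange receptor genes, lay under 200 at 152 and 106. Of the T and natural killer cell list 5 of 11 reached 200, led by Gzma, a granzyme, at 1540.4, 1665, 1413 and 2536; Cd3d, Cd3e, Cd3g and Cd4, which define T cells, lay between 18.4 and 107. Of stem and progenitor cell genes 7 of 9 reached 200, with Myb at 1536, Hlf at 782 and Kit at 707; Procr, a marker of stem cells, read 63.3.

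All 21 measured genes of cell division reached 200. Pcna, the clamp of DNA polymerase, read 13932, 13012, 15469 and 12239, Rrm2, which makes DNA precursors, 13280.3, 11667, 13837 and 10474, and Mki67, the marker of cycling cells, 12574, 9322, 10487 and 7590. Wild type 4 was lowest for each of the 3. These values do not say which cells divide.

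Within wild type 1 and 2 and within 3 and 4, genes of different blood lineages differed in opposite directions. Of the 20 erythroid genes at 200 or more, 3 were higher and 17 lower on wild type 2 than on 1. All 20 were lower on wild type 4 than on 3, and 17 were lower in both, against 26.0% of all genes at 200 or more. Related lists, which share members with this one, followed it less closely for wild type 2 and 1. Of 10 erythroid transcription factors 5 were higher on wild type 2 than on 1, and 2 on wild type 4 than on 3. Of 8 heme synthesis enzymes these counts were 5 and 0. In both pairs 5 of the factors and 3 of the enzymes were lower. Of the 21 cell division genes 14 were lower in both, and 0 were higher in both. Granulocyte genes went the other way, with 12 of 14 higher in both, against 25.0% of all genes. So did 11 of 13 Kupffer cell genes, 6 of 7 megakaryocyte genes and 7 of 7 B lymphoid genes. Of the 12 hepatocyte genes 3 were higher and 5 lower in both.

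Several other lists, mostly of genes active in hepatocytes, had more members higher than lower in both pairs. Of 20 complement genes 13 were higher and 2 lower in both, against 25.0% and 26.0% of all genes, and of 18 hepatocyte transcription factors 9 and 2. The complement list holds C1qa, C1qb and C1qc, which are also on the Kupffer cell and macrophage list and were counted there as well. Of 13 bile acid genes 7 were higher, of 11 periportal genes 6 and of 8 urea cycle genes 4, and no gene of these 3 lists was lower in both. These counts overlap, since Cps1, Ass1, Asl and Arg1 are on both the periportal and the urea cycle list. Nr1h4 is on both the bile acid and the transcription factor list. Of 15 plasma carriers 2 were higher and 5 lower, and of 12 pericentral genes 2 and 3. The pyruvate carboxylase ratio fell along with these differences, from 3.46 to 2.63 and from 2.33 to 2.12; the first pair holds wild type 1, the array most often apart, and in the second wild type 4 had high Xist and wild type 3 did not. The part of each in these counts was not tested.

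The sizes were modest for erythroid and large for B lymphoid genes. The median log2 ratio of the erythroid genes was -0.16 for wild type 2 over 1 and -0.40 for wild type 4 over 3. For cell division genes it was -0.10 and -0.48, for granulocyte genes 0.41 and 0.36, and for Kupffer cell genes 0.15 and 0.34. For megakaryocyte genes it was 0.19 and 0.51, and for B lymphoid genes 0.90 and 0.98. Summed over the list, granulocyte genes read 85445, 103856, 82915 and 102676 on wild type 1 to 4, and Kupffer cell genes 34341, 41792, 34592 and 45959. The order of the numbers within a pair has no meaning in the labels, the pattern was noticed in the values, and members of a list come from the same livers, so that each pair is a single difference between 2 pups.

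**Figure D3:**
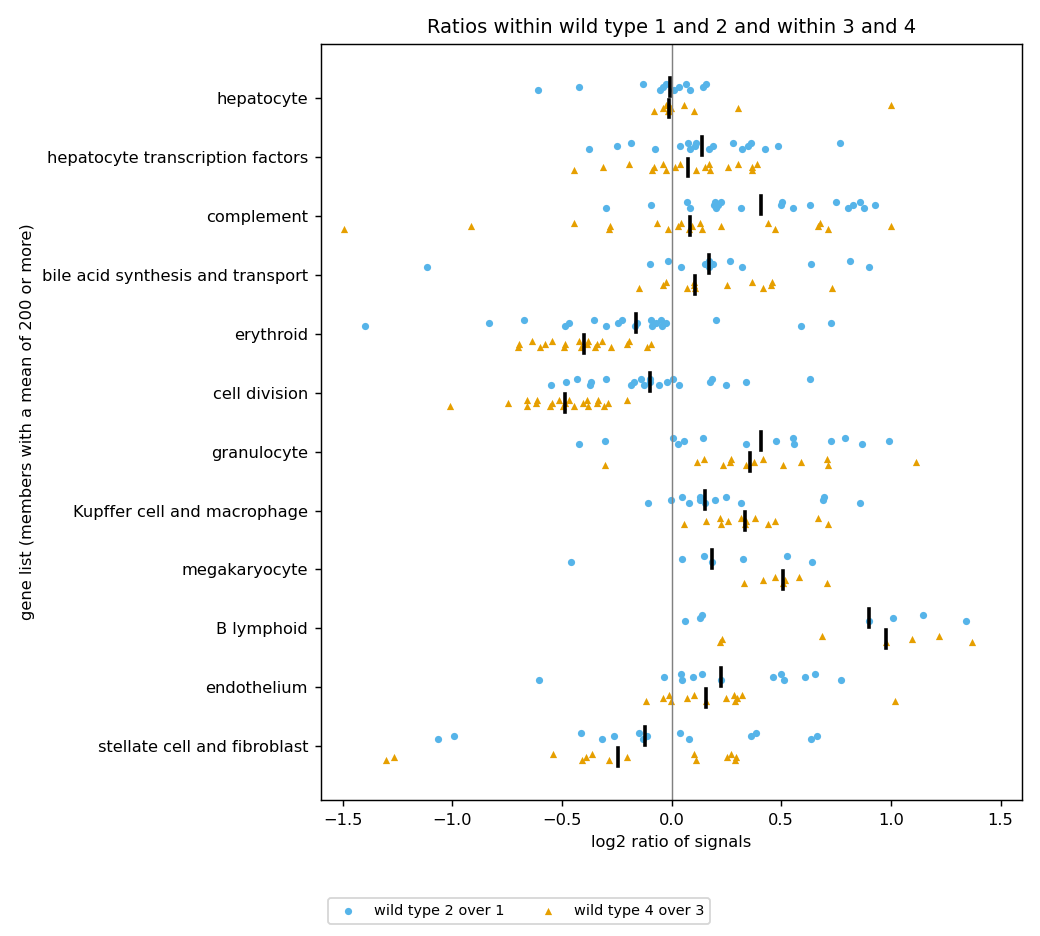
Log2 ratio of signals (x axis) of wild type 2 over 1 (circles) and wild type 4 over 3 (triangles) for each member with a mean of 200 or more of 12 gene lists; black bars are medians. Erythroid and cell division genes lie mostly left of 0 and granulocyte, Kupffer cell, megakaryocyte and B lymphoid genes mostly right of it, while hepatocyte medians are at -0.01 in both and most complement, bile acid and transcription factor genes of liver lie right of 0.

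Other cells of the liver were read at lower levels. All 13 endothelial genes reached 200, led by Lyve1 and Stab2 of the sinusoids (2456, 2874, 1625 and 3296 and 1049, 1794, 1928 and 1926). All 14 stellate cell and fibroblast genes did, led by Dcn, a proteoglycan of matrix, at 5539 and Reln, a marker of stellate cells, at 4787. Col3a1 and Col1a2, collagens of fibrous matrix, were highest on wild type 3, at 2679, 3497, 6534 and 4488 and 1922, 2469, 4203 and 3207. Of the bile duct list only Epcam, an adhesion protein of duct cells and immature hepatocytes, reached 200 of 8 measured. It read 1231, 1025, 463 and 153.

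Transcripts of neighbouring organs were looked for in the same way. Of 10 measured exocrine pancreas genes, 5 reached 200, and the list summed to 1680, 1680.1, 4483 and 1872. Ctrb1, which encodes chymotrypsinogen B, read 73, 56.8, 906 and 34.6; Clps, which encodes colipase, 87.7, 89.9, 535 and 125; Cela2a, an elastase, 24, 53.3, 491 and 92.6; Cpb1 and Cpa1, carboxypeptidases, 27.3, 7.1, 323 and 12.5 and 12, 12.6, 215 and 7.1. For each of these 5 wild type 3 was the highest array by far and the other 3 lay at or below background. Cela1, the brightest of the list, did not differ: 715, 599, 658 and 674. Whether pancreas tissue was taken with that liver was not tested. The list of skeletal muscle had 1 of 14 members at 200 or more, brain 4 of 11, fat 2 of 6 and intestine 5 of 9, of which Apoa4 is also made by liver.

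The spread among the 4 livers was small for most transcripts. Over the 20344 probe sets at 200 or more the median CV was 17.1%, with quartiles of 11.3% and 25.1%. A CV of 50% or more was found in 510 of them (2.51%) and in 219 genes (2.01%). The median CV fell with brightness, from 20.7% between 200 and 500 to 10.4% at 20000 or more. These CVs hold both the difference between pups and that of the measurement, since no liver was measured again.

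Wild type 1 carried much of that spread. A single array lay apart from a tight group of the other 3, by Dixon's criterion, in 1326 of the 20344 probe sets (6.52%, where chance gives about 5%), and it was wild type 1 in 848 of these (64.0%). Without wild type 1 the median CV was 12.3% and 292 probe sets reached 50%, against 16.9% to 17.6% and 641 to 734 when any other single array was left out. The lowest correlation of log2 signals between wild type 1 and another array was 0.920, and the highest between any arrays 0.968. Its pyruvate carboxylase ratio was also the highest, and its part in the spread was not tested.

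The brightest probe sets differed between the pairs of arrays. Of the 104 probe sets at 20000 or more, 83 (79.8%) were higher on both wild type 3 and 4 than on both 1 and 2, with a median ratio of 1.18, whereas below 10000 between 15.2% and 22.3% of each class at 200 or more were. The hepatocyte list, 10 of whose members had means of 10000 or more, shared this, with 10 of 12 higher on 3 and 4 and a median log2 ratio of 0.30. Whether hepatocyte genes differed between the pairs beyond this shift of the brightest probe sets was not tested.

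**Figure D4:**
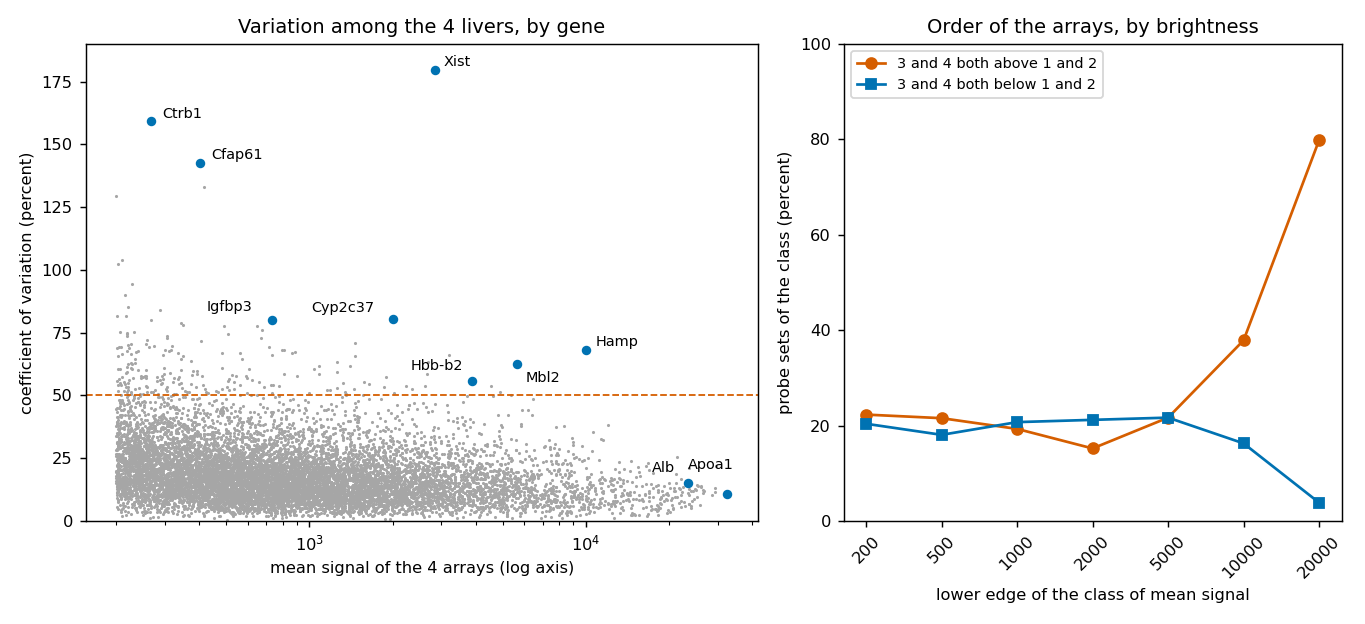
Left, the CV over the 4 arrays (y axis, percent) of each gene at 200 or more against its mean signal (x axis, log scale), with the dashed line at 50%. Right, for classes of mean signal given by their lower edge (x axis), the percent of probe sets for which wild type 3 and 4 both lie above (circles) or below (squares) wild type 1 and 2: the share above is 79.8% in the class from 20000 and at most 22.3% in the classes below 10000.

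The 20 genes with the highest CV were mostly dim, and several were high on a single array. Xist and Ctrb1, described above, led. Cfap61, a protein of cilia, read 1256, 75.2, 53.7 and 225, and Lce1h, a protein of the skin barrier, 1241, 91.5, 90 and 246; both were high on wild type 1 only. Pnliprp1, a lipase of the pancreas, read 12.4, 167, 578 and 45.7 and was highest on wild type 3 like the pancreas genes. Foxh1 (139.6, 74.3, 85.6 and 512) was high on wild type 4 only. Ghrhr, Tmem267, Lexis1, H2-T18 and Mis12 were highest on wild type 1, and Emp2 and Hamp2 on wild type 2. Ikbke, a kinase of innate immunity, was high on wild type 2 and 3 (52.2, 385, 382 and 43.3).

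Others of the 20 have known roles in liver. Cyp2c37, a cytochrome P450, read 648, 630, 3763 and 2985, so that both arrays of the second pair lay far above both of the first, as did those of Nmrk1 (108, 141, 676 and 476), a kinase that makes nicotinamide mononucleotide. Nr1d1, a repressor of the circadian clock, read 44, 332, 298 and 700.4, lowest on wild type 1 and highest on wild type 4. Wnt7b read 139.9, 55.7, 537 and 340.4. Of 13 clock genes at 200 or more Nr1d1 was the only one with a CV of 50% or more.

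Above a mean of 1000, where 65 probe sets had a CV of 50% or more, several plasma and liver genes were among the most variable, and those named next were picked with their values in view. Hamp, which encodes hepcidin, the hormone that lowers plasma iron, read 3324, 18031, 5454 and 13308, a CV of 68.3%. It was higher on wild type 2 than on 1 and on wild type 4 than on 3, the direction of the granulocyte and Kupffer cell lists, and Hamp2 read 330.2, 1373, 297 and 580.3. Cyp2c50 read 2905, 2388, 1881 and 387, low on wild type 4, in contrast to Cyp2c37. Car3, a carbonic anhydrase of liver, fat and muscle, read 1477, 5889, 7009.6 and 3795, lowest on wild type 1. Lrg1, a plasma glycoprotein, read 1141, 1624, 3069.9 and 4933, and Defb1, an antimicrobial peptide, 6119, 2459.9, 1134 and 3042. Car1, a carbonic anhydrase of red cells, read 2576, 2199, 1097 and 678.

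**Figure D5:**
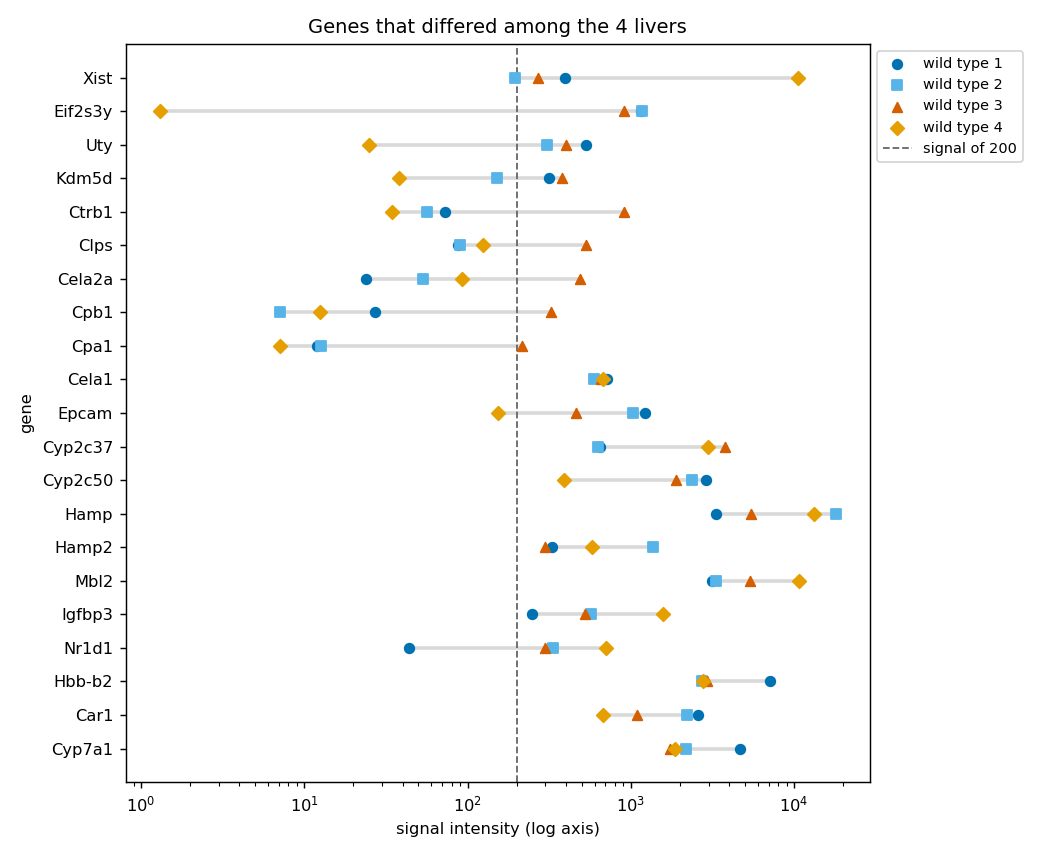
Signal (x axis, log scale) on each of the 4 arrays of sex linked genes, pancreas genes and liver genes that varied; the grey bar joins the lowest and highest array and the dashed line is 200. Wild type 4 (diamonds) stands apart for Xist and the Y-linked genes, wild type 3 (triangles) for 5 pancreas genes but not Cela1, and Hamp spans 3324 to 18031.

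Genes that respond within minutes and genes of sterol synthesis had median ratios of opposite sign between the pairs of arrays. Of 12 immediate early genes at 200 or more, 8 were higher on both wild type 3 and 4 and 0 lower, against 18.9% and 19.8% of all genes at 200 or more, with a median log2 ratio of 0.56. Jun, a transcription factor of this class, read 564, 838, 1880.3 and 2004, and Egr1 1475, 2011, 3001 and 3341. Of 13 sterol synthesis genes 5 were lower on both and 1 higher, against the same 19.8% and 18.9%, with a median log2 ratio of -0.35. The first pair was not alike for this list. Of the 13 genes, 12 were higher on wild type 2 than on 1, with a median log2 ratio of 0.32, and 10 were highest on wild type 2. The list summed to 32809, 41918, 27678 and 27047 on wild type 1 to 4. Hmgcs1, the enzyme that feeds the pathway, read 11141, 11560.4, 6572 and 6763, and Idi1 3584, 3683, 2105 and 1967.

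At the other end, the 10 genes with the lowest CV were Hk3, Mbd2, Stx7, Synj2, Tmem185a, Idh1, Hnrnpk, Dpysl2, Ccs and Ric8b, with CVs from 0.559% to 1.25%. Hnrnpk, an RNA binding protein, read 12725, 12468, 12564 and 12766, and Idh1, the cytosolic isocitrate dehydrogenase, 6873, 6969.6, 6859 and 6787. Of 11 measured housekeeping genes none reached a CV of 50%, and their median was 16.9%, no lower than that of all genes. The median signal of this list was 6150, and all probe sets from 5000 to 10000 had a median CV of 12.2%. Actb, the actin often used as a standard, read 16573, 19169.6, 24815 and 24091. With 4 arrays and so many genes, some CVs near 0 arise by chance, and the 10 genes are a description of these arrays.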

How the data were processed

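The authors' deposited table holds linear signal intensity per probe set, made with Affymetrix GCOS 1.2 at default settings and scaled so that each array met a target of 500 with all probe sets, per the labels. It gives no detection calls, so dim and undetected were not separated. The scaling was kept; after trimming 2% from each end every array's mean was 500.

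Probe sets were named from the platform annotation through Entrez identifiers and a RefSeq table (GRCm38.p6): 34945 stood for 1 gene, 932 for several and 9160 for none, and 64 controls were left out. Mean, sample SD and CV were computed over the 4 wild-type arrays with Python 3.11.15 and pandas 2.3.3, and figures were drawn with matplotlib 3.10.9. The single group allows no test between groups; Dixon's criterion at 5% marked an array that lay apart from the other 3, as a description; the number of arrays limits the precision. A CV of 50% or more was called variable. The computation was tested on simulated data.

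The text names the 40 brightest genes, up to 5 brightest and 5 dimmest members of each of 45 lists and 22 families, the 20 most and 10 least variable genes, and the sex linked genes; others are said to be chosen after their values were seen, or stand for a group described. The arrays, lists and rule were chosen with earlier results of these data known. Alternatives were each array left out, other scalings, minimums and summaries; the pooled SD within wild type 1 and 2 and within 3 and 4, and a minimum of 1000, were added after the data were seen.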

Additional observations from a re-analysis of the deposited data

Results flagged for a closer look

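On 21 of the 240 named genes and 4 of the 45 list sums, 1 array lay apart from a tight group of the other 3 by Dixon's criterion. The criterion marks about 1 in 20 groups by chance, a rate that cannot be set against these genes, since some were named for their spread. Wild type 1 was that array in 11 cases. It was high for Cfap61 (1256 against 53.7 to 225), Lce1h (1241 against 90 to 246), Mis12 (1060.3 against 269 to 322), Cyp7a1 (4700.4 against 1729.7 to 2168), Hbb-b2 (7139 against 2713 to 2942), Hba-a2 (179 against 80.3 to 90.3), the summed globins (8036 against 3426 to 3569.8), which Hbb-b2 makes up for the most part, and, by a far smaller margin, Tmem185a (747 against 732 to 734). It was low for Alas1 (1031 against 1902 to 2003), Serpina3n (6584 against 8051 to 8226) and Stab2 (1049 against 1794 to 1928). The globin sum left out the 4 bright probe sets paired with several globin genes, on which wild type 1 lay below wild type 3 and 4.

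Wild type 3 was apart in 8 cases. It was high for the pancreas genes Ctrb1 (906 against 34.6 to 73), Clps (535 against 87.7 to 125), Cela2a (491 against 24 to 92.6), Cpb1 (323 against 7.1 to 27.3) and Cpa1 (215 against 7.1 to 12.6), for the pancreas list as a whole (4483 against 1680 to 1872), and for Ass1 (451 against 210.1 to 231). It was low for S100a9 (16994 against 20363 to 20443).

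Wild type 4 was high for Xist (10506 against 196 to 396), the sum of the sex linked genes (10570.2 against 1817 to 2403), in which Xist dominates, Foxh1 (512 against 74.3 to 140), Igfbp1 (31459 against 23909 to 25098) and the summed periportal genes (93477 against 64885 to 68890). Wild type 2 was apart once, for Mrpl51 (4564 against 4303 to 4334).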

How the results depend on the processing

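The brightest genes depended most on how probe sets were summarised: between 38 and 40 of the 40 were shared when an array was left out, 40 under quantile normalization and median scaling, 35 and 37 on wild type 1 and 2 or 3 and 4 alone, but only 29 when all probe sets of a gene were averaged. That average moved the share of signal in the 100 brightest genes from 11.3% to 13.6%, and the hepatocyte and erythroid sums from 258912 to 221427 and from 125433 to 109723. A minimum of 500 left 11819 probe sets.

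Variation depended on the arrays and the minimum. Leaving out an array gave 292 to 734 probe sets with a CV of 50% or more and median CVs from 12.3% to 17.6%, the lowest of both without wild type 1. On wild type 1 and 2 alone 786 probe sets reached 50%, and on 3 and 4 alone 299, with a median CV of 9.43%. Minimums of 100, 500 and, added after the data were seen, 1000 gave 1675, 143 and 65. Of 39 named variable genes, 30, 38, 36 and 26 kept a CV of 50% or more without wild type 1, 2, 3 and 4. The causes were not tested.

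The planned share of proteins with a hydrophobic start was not run, since it needs a protein table. No paired analysis was possible because a single group was described with no test.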

Other observations

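Among interferon induced genes, 2 stood far above the rest of their list. Iigp1, a GTPase that interferon gamma induces, read 10589, 8583, 8918 and 7661, and Rsad2, an antiviral enzyme, 7912, 7405, 9049 and 9297, with CVs of 13.7% and 10.7%. All 17 measured members of the list reached 200, but the others had means from 349 (Gbp3) to 1645 (Irgm1), with a median over the list of 659.5. The sums of the list were 28476, 29442, 31727 and 30022 on wild type 1 to 4.

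Genes that glucocorticoids and fasting induce all reached 200, 17 of 17, from 206 for Fgf21 to 26185 for Igfbp1. Sgk1, a kinase that glucocorticoids induce, was chosen after its values were seen and read 1065, 2477, 2055 and 3053. Its lowest value was on wild type 1 and its highest on wild type 4, as for Nr1d1 and Per1 of the clock (251, 547, 579.5 and 866).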
